A study of Mus musculus with 2 samples.

Results

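Visceral smooth muscle cells (SMC) were examined among mesenchymal stromal cells (MSC) recovered from grafts of embryonic mouse intestine. They were chosen by their RNA, as cells with a unique molecular identifier (UMI, a tag that counts each captured transcript) for at least 3 of the 4 muscle genes Myh11, Actg2, Cnn1 and Des. A cell was left out if it held a UMI for 2 or more of the 4 mural genes Notch3, Kcnj8, Vtn and Cspg4, or for both Kit and Ano1, the pair that marks interstitial cells of Cajal (ICC). This gave 1168 SMC among 17783 cells that had at least 500 detected genes and at most 10% mitochondrial UMIs. The large intestinal (LI) graft library held 533 SMC among 9873 such cells, and the small intestinal (SI) graft library held 635 among 7910.

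The grafts were pieces of LI or SI from embryos of the strain labelled EYFP (C57BL/6), grafted beneath the kidney capsule of wild-type adults and collected after 4 weeks. Graft cells had been sorted as live YFP+ Itgb1+ cells that lacked CD45, Ter119, BP3, CD31, EpCAM and L1CAM to select cells of the embryonic tissue. Both libraries held male and female cells. The paper states that its colonic grafts were pooled, and the sources used here do not say how many SI grafts were used. There was 1 library for each kind of graft, and cells of a library are not replicates, so no difference below was tested. The study used 3′ and 5′ capture kits without saying in the sources used here which library had which, so a difference in kit and a difference between grafts cannot be told apart.

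Visceral SMC form the muscle coats of the gut wall and shorten when myosin thick filaments pull on actin thin filaments. The thin filaments are held in dense bodies in the cytoplasm and at the membrane, and contraction is switched on by calcium, calmodulin and myosin light chain kinase. Visceral and vascular SMC share most of this apparatus. In the gut, SMC arise from the embryonic mesenchyme under hedgehog and BMP signals, and lie next to ICC, enteric nerves and fibroblasts (FB). Many contractile genes carry a CArG box, the DNA element bound by serum response factor, whose muscle cofactor is myocardin.

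The LI library held 11568 barcodes with 63348069 UMIs and the SI library 9631 barcodes with 54918006 UMIs. Median UMIs per cell were 5569 in LI and 5931 in SI SMC, with 2198 and 2313 genes detected, close to all other passing cells at 5268 and 5669 UMIs. There were 26 barcode sequences present in both libraries, and 0 of them belonged to SMC. Cells with the highest doublet scores made up 14.1% of LI and 12.3% of SI SMC, against 10.0% and 8.23% of all passing cells. By sex-linked transcripts, 82.6% of LI and 53.2% of SI SMC were female and 8.26% and 25.7% were male. Levels are given as counts per 1000000 UMIs (CPM) after pooling all cells of a class, and their 95% intervals cover counting error only.

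Promoters of contractile and dense body genes that held a CArG box are shown because levels of these genes set the SMC apart below. The box was searched by name in windows from 250 bases before to 50 bases after each start site in RefSeq (GRCm38.p6), and since it reads as a CArG box on either strand, 1 search served both. Of 42 gene symbols from the thick filament, thin filament and dense body lists or from the 25 genes ranked below that had a window, 6 (14.3%) held a box: Myl9, Myl6, Vcl, Fbxl22, Fhl1 and Ldb3. Among all symbols in the table the share was 488 of 27025 (1.81%). Fhl1 and Ldb3 were not among the dense body genes found 2-fold higher in SMC below, and their windows are not shown. In the following windows, written 5′ to 3′ along the gene, capitals mark the box, which is a match of letters and not a measured binding site. The windows are Myl9 at chr2:156775214-156775513 on the + strand, Myl6 at chr10:128492960-128493259 on the - strand, Vcl at chr14:20929148-20929447 on the + strand and Fbxl22 at chr9:66514544-66514843 on the - strand. The box began 161 bases before the start site in Myl9, 50 in Myl6, 227 in Vcl and 222 in Fbxl22.
Myl9: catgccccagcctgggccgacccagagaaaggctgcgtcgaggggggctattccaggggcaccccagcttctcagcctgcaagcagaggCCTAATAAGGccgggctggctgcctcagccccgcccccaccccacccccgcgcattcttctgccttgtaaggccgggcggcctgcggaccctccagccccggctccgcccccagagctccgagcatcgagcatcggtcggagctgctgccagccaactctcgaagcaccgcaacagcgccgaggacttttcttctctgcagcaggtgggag
Myl6: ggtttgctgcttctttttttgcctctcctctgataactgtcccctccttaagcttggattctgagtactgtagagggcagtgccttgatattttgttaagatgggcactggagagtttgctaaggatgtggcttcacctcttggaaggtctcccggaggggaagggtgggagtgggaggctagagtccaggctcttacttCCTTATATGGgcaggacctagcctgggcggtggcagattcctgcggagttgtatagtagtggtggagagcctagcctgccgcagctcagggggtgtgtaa
Vcl: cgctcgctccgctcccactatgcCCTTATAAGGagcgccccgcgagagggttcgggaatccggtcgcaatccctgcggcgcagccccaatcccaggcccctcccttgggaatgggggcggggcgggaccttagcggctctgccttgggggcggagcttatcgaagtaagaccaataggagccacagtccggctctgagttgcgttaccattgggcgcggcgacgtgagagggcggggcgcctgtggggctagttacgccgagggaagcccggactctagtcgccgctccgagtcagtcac
Fbxl22: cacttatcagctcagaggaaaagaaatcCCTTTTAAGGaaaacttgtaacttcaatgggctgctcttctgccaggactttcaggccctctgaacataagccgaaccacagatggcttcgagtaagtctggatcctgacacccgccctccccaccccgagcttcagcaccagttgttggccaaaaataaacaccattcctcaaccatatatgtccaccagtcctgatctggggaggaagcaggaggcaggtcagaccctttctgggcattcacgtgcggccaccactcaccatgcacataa

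The gate was first followed step by step. Of passing cells, 683 in the LI and 1062 in the SI graft held at least 3 muscle markers, and the limit on mural markers then removed 142 (20.8%) and 422 (39.7%) of them. The exclusion of Kit and Ano1 cells removed 8 and 5 more. SMC made up 5.40% (95% interval 4.96 to 5.86) of LI and 8.03% (7.44 to 8.65) of SI cells. All 4 muscle markers were detected in 227 LI and 334 SI members, and 3 in 306 and 301. Myh11, the smooth muscle myosin heavy chain, was detected in 92.3% of LI and 95.6% of SI members, Actg2 (enteric smooth muscle actin) in 95.1% and 95.6%, Cnn1 (calponin, a thin filament regulator) in 86.7% and 79.2%, and the intermediate filament gene Des in 68.5% and 82.2%. These values chose the cells and are given as a description.

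**Figure D1:**
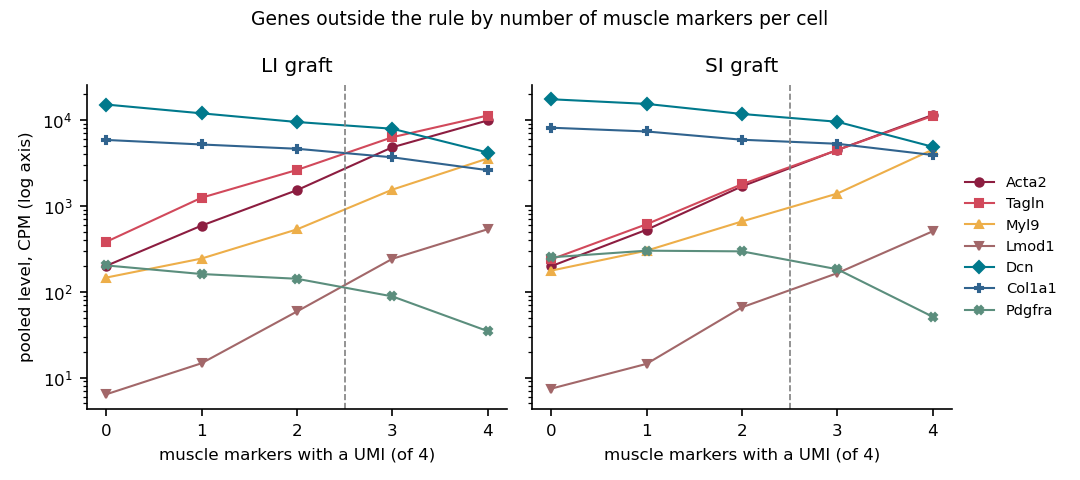
Pooled levels (CPM, log axis) of genes outside the rule in cells with 0 to 4 muscle markers, for the LI and SI graft libraries, among cells that met the mural and ICC limits. Acta2 and Tagln climbed with each added marker, from 199.6 and 379.8 CPM at 0 markers to 9848 and 11233 CPM at 4 in the LI graft, while Dcn declined.

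Genes that the rule did not use moved with the number of markers on both sides of the limit. In the LI graft, Acta2, the smooth muscle alpha-actin gene, stood at 1519 CPM in the 507 cells with 2 markers, just outside, at 4794 CPM in members with 3 and at 9848 CPM in members with 4. In the SI graft the levels were 1681, 4459 and 11394 CPM. The fibroblast proteoglycan gene Dcn went the other way, from 9437 to 7879 and 4162 CPM in the LI graft and from 11705 to 9496 and 4855 CPM in the SI graft. Within members the spread between cells was wide: the 10th, 50th and 90th percentiles of Acta2 per cell were 854, 6775 and 15927 CPM in the LI and 1015, 7776 and 19169 CPM in the SI graft.

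Muscle markers outside the rule were present in the SMC of both grafts. Lmod1 (leiomodin, which starts actin filaments in smooth muscle; chr1:135324807-135368065) was at 363 CPM (344 to 383) in LI and 341 (325 to 358) in SI members. After each cell was thinned to 2000 UMIs, Lmod1 was detected in 49.4% of LI and 49.3% of SI members, against 1.62% and 1.58% of Pdgfra+ FB, which should lack it. Without thinning the shares were 74.9% and 68.8%, against 3.84% and 4.25%. Myocd, which encodes myocardin, was at 45.5 CPM (38.8 to 53.0) and 46.9 (41.0 to 53.4) in members and at 3.90 and 5.26 CPM in all other cells. It was detected in 11.3% and 8.97% of thinned members and in 0.44% and 0.45% of thinned Pdgfra+ FB.

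The label did not hold for every cell that met the rule. Pdgfra, which marks FB, had a UMI in 27.6% of LI and 30.1% of SI members, and those cells were deeper, with medians of 7910 and 8477 UMIs against 5150 and 5268 in members without it. Acta2 was at 4659 and 4005 CPM in the Pdgfra+ members and at 8346 and 10895 CPM in the rest. The 9 fibroblast genes summed to 21399 CPM in LI and 25353 in SI members, between the 42675 and 54402 CPM of Pdgfra+ FB and the 10119 and 10746 CPM of Myh11+ mural cells. With the top doublet scores removed, the log2 ratio of SMC over other cells was 4.15 in the LI and 2.95 in the SI graft for Lmod1, against 3.97 and 2.69 with them. Markers of types removed by the sort were scarce: the 6 immune genes summed to 12.9 and 8.05 CPM, the 4 endothelial genes to 4.93 and 2.06 CPM and the 5 epithelial genes to 3.56 and 2.68 CPM. The 7 glial and neuronal genes summed to 14.8 and 16.9 CPM, and 4 of the 7 were at 0 in each library.

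Contractile genes were higher in SMC than in all other cells. Since the rule chose the cells by 4 muscle genes, these contrasts are a description, with no test. Among 15 thick and thin filament genes outside the rule, 9 were at least 2-fold higher in both libraries and 0 were lower, while 2.51% of 3589 genes passed that limit upwards and 1.76% passed it downwards. From the thin filament these were Acta2, Tagln (transgelin, an actin-binding protein), Tpm1 and Tpm2 (tropomyosins), Lmod1 and Smtn (smoothelin). From the thick filament they were Myl9, Myl6 and Mylk, which encode the regulatory light chain, the essential light chain and the kinase that switches myosin on. The median log2 ratio over the 8 thin filament genes was 2.47 in the LI and 2.24 in the SI graft, beside medians of 0.01 and 0.05 over all genes tested, and over the 7 thick filament genes it was 0.57 and 0.34. When members with a mural marker were counted as other cells, the log2 ratio of Smtn in the SI graft was 0.83, in place of 1.94.

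Acta2 (ENSMUSG00000035783, chr19:34241090-34255590) was at 6908 CPM (6823 to 6993) in LI SMC and 8072 (7992 to 8153) in SI SMC, against 626 and 1381 CPM in all other cells. Its level in Myh11+ mural cells (2 or more mural markers and a Myh11 UMI) was 5749 and 6808 CPM. Tagln (chr9:45929619-45936058) was at 8348 CPM (8255 to 8442) and 7916 (7837 to 7996), against 962 and 1290 CPM. Mylk was at 1216 and 1830 CPM in SMC, at 179 and 332 CPM in other cells and at 766 and 953 CPM in mural cells. The log2 ratio of pooled SMC over pooled mural cells was 0.26 and 0.25 for Acta2, 0.69 and 0.41 for Tagln and 0.19 and 0.36 for Myl9. Medians over single cells lay further apart. For Acta2 the median was 6775 CPM in LI SMC and 2315 CPM in LI mural cells, and 7776 and 3547 CPM in the SI graft. For Lmod1 it was 348 and 78.2 CPM in the LI and 330 and 161 CPM in the SI graft. The classes differed in gate, since SMC needed at least 3 muscle markers and mural cells only a Myh11 UMI. Cells with 3 or 4 muscle markers that were removed for 2 or more mural markers held more of both genes than SMC. Their pooled Acta2 was at 9372 CPM in the LI and 9524 CPM in the SI graft, and Tagln at 8584 and 8017 CPM.

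**Figure D2:**
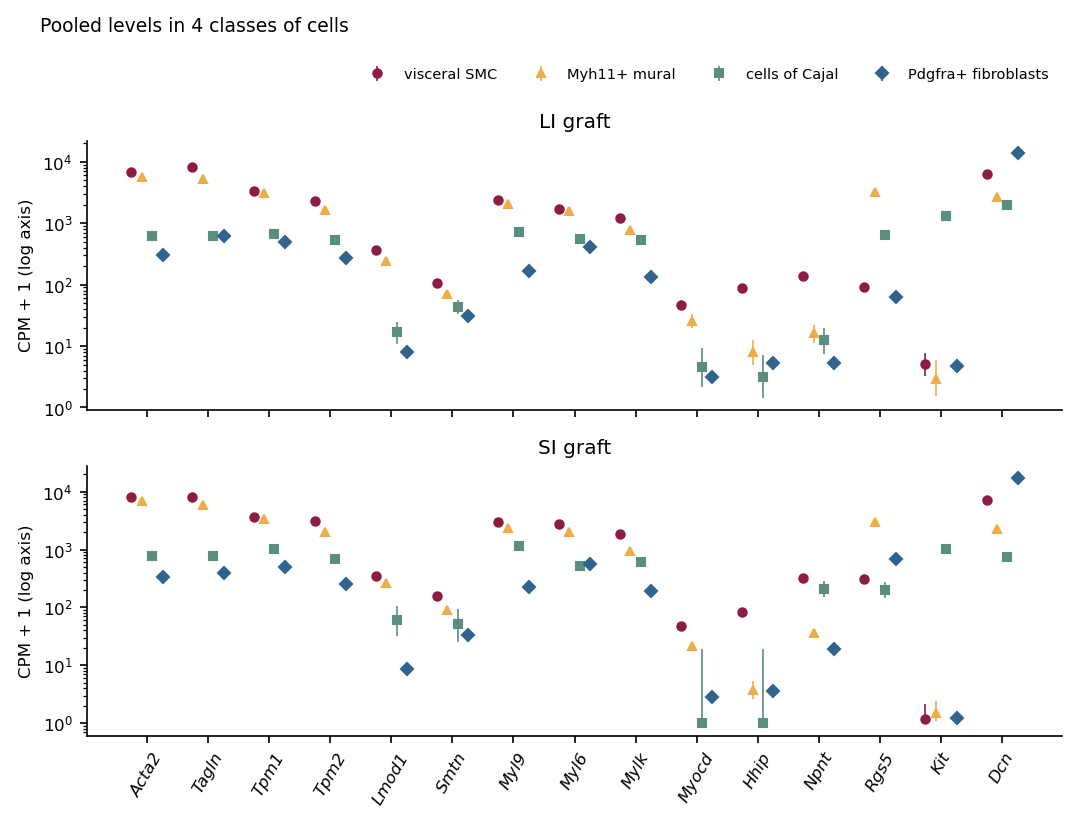
Pooled levels (CPM plus 1, log axis) with 95% counting intervals as bars in SMC, Myh11+ mural cells, ICC (cells of Cajal) and Pdgfra+ FB of each library. Pooled Acta2 is at a log2 ratio of 0.26 and 0.25 of SMC over mural cells, whereas Hhip and Npnt are higher in SMC than in mural cells and Rgs5 is higher in mural cells.

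Of 15 tested dense body genes 9 were at least 2-fold higher in both libraries: Vcl (vinculin), Flna (filamin A), Actn1 (alpha-actinin), Synpo2, Pdlim3, Pdlim7, Csrp1, Nexn and Jph2. Flna was at 550 CPM (526 to 575) in LI and 598 (577 to 620) in SI SMC, against 118 and 153 CPM in other cells. Of 10 genes that anchor the cytoskeleton to the membrane, 2 passed, namely Dmd (dystrophin) and Itga9 (an integrin at 50.1 and 77.4 CPM). Among 11 genes that set the calcium sensitivity of contraction, 3 passed: Ppp1r12a and Ppp1r12b, the targeting subunits of myosin phosphatase, and Mrvi1, through which cyclic GMP lowers calcium release. Median log2 ratios in the LI and SI graft were 1.44 and 1.33 for dense bodies, 0.90 and 0.60 for membrane anchors and 0.54 and 0.27 for calcium sensitivity. When 2 muscle markers sufficed, log2 ratios in the LI and SI graft were 0.97 and 0.85 for Ppp1r12a, 0.90 and 0.87 for Mrvi1, 0.83 and 0.80 for Actn1 and 0.77 and 0.88 for Pdlim7, all short of 2-fold, as were Dmd (0.84) and Vcl (0.92) in the SI graft. When members with a mural marker were counted as other cells, Ppp1r12a (0.80), Actn1 (0.88) and Synpo2 (0.94) fell short in the SI graft.

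Channels, receptors and transcription factors were low or shared with other cells. Kcnma1, the large-conductance potassium channel that limits contraction, was the 1 of 7 tested channel genes that passed, at 76.4 CPM (67.7 to 86.0) in LI and 38.0 (32.7 to 43.9) in SI SMC. Cacna1c, the L-type calcium channel, was at 25.2 and 29.9 CPM and was not tested at the limit of 50 CPM. Chrm2, a muscarinic acetylcholine receptor of gut muscle, passed among 3 tested receptors, at 25.8 CPM (20.8 to 31.5) and 64.8 (57.8 to 72.4) against 5.04 and 9.38 CPM in other cells. When members with a mural marker were counted as other cells, its log2 ratio was -0.20 in the LI graft, in place of 2.15. In the SI graft it rounded to 0.00, in place of 2.66. The other muscarinic receptor of gut muscle, Chrm3, had 0 UMIs in SMC of both libraries, where 3 counts would be 0.822 and 0.619 CPM. Of 7 tested transcription factors 0 passed, and Foxf1, a hedgehog target of gut mesenchyme, was at 244 and 226 CPM against 146 and 155 CPM. Myocd, higher in members than in other cells as given above, stayed below 50 CPM and was not tested.

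Among signalling genes a small group stood apart from mural cells as well. Hhip (ENSMUSG00000064325, chr8:79965851-80058006), which binds and retains hedgehog ligands, was at 88.8 CPM (79.4 to 99.0) in LI and 82.2 (74.3 to 90.6) in SI SMC. In other cells Hhip was at 4.79 and 2.93 CPM and in mural cells at 7.08 and 2.73 CPM. Npnt (nephronectin, a basement membrane ligand of integrins; chr3:132881745-132950291) was at 136 CPM (125 to 149) and 317 (302 to 334), against 15.1 and 35.0 CPM in mural cells. Per-cell detection bore the same order after thinning: Hhip in 13.8% and 12.2% of SMC against 1.07% and 0.51% of Pdgfra+ FB, and Npnt in 18.1% and 32.3% against 0.82% and 2.45%. Without thinning Hhip was detected in 24.95% and 17.6% of SMC.

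By list, 1 of 11 tested hedgehog and BMP genes (Hhip), 2 of 10 epithelial niche factors (among them Pdgfc, a platelet-derived growth factor), 1 of 9 nerve and pacemaker factors (Sema3a, a repellent axon guidance cue) and 1 of 12 basement membrane genes (Npnt) passed the 2-fold limit in both libraries, and 0 were lower. The hedgehog receptor and target Ptch1 was at 178 CPM in LI and 135 CPM in SI SMC against 118 and 94.1 CPM in other cells. Rspo3, which strengthens WNT signals, was at 177 and 192 CPM against 99.6 and 112 CPM. Gdnf, the growth factor of enteric neural progenitors, was at 38.1 and 15.5 CPM against 13.1 and 6.41 CPM. Of 15 interstitial matrix genes 0 were 2-fold higher, 14 did not pass in either direction and Fbln1 was lower, with medians of -0.51 and -0.51 on the log2 scale. Of 9 fibroblast markers, 5 did not pass and Pdgfra, Cd34, Dpt and Pi16 were lower, where 1.76% of all genes were. When 2 muscle markers sufficed, Pdgfra (-0.77 in LI and -0.25 in SI), Fbln1 (-0.85 and -0.99) and Cd34 in the LI graft (-0.99) fell short of 2-fold. Col1a1 was nonetheless at 3216 and 4552 CPM in SMC, above the 1245 and 1837 CPM of mural cells.

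Genes at 50 CPM or more in SMC of both libraries, the 4 genes of the rule apart, were ranked by their smaller ratio of the libraries. The 25 highest included Sh3bgr, Hhip, Npnt, Pcp4, Fbxl22, Frem2, Lmod1, Tagln, Tpm2, Acta2, Ctxn1, Mylk, Pdlim3, Myl9, Tes, Id4, Cdc42ep3, Nkd1, Flna, Synpo2, Speg, Tpm1, Nexn and Dmpk. They hold filament and dense body genes beside genes with other known roles. Fbxl22 (an F-box protein of the sarcomere; chr9:66508459-66514593) was at 395 CPM (375 to 416) in LI and 435 (416 to 453) in SI SMC, against 25.3 and 45.6 CPM in other cells and 175 and 157 CPM in mural cells. Frem2, an extracellular matrix protein of epithelial adhesion, was at 104 and 120 CPM in SMC and at 19.3 and 20.4 CPM in mural cells. Tes (testin, a focal adhesion protein) was at 137 and 170 CPM in SMC and at 24.5 and 21.5 CPM in mural cells. Nkd1, a WNT target that dampens WNT signals, was at 95.9 and 120 CPM in SMC and at 20.7 and 29.5 CPM in other cells.

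The rule allowed a member 1 of the 4 mural markers. A single mural marker was present in 211 LI and 255 SI members, and most often it was Kcnj8, a potassium channel subunit, in 157 (74.4%) and 120 (47.1%) of them. Cells removed for 2 or more mural markers carried Notch3 in 81.7% and 87.2%. Rgs5, a pericyte gene outside the rule, was at 53.8 and 272 CPM in members with 0 mural markers, at 138 and 357 CPM in members with 1 and at 2058 and 2462 CPM in the removed cells. In all SMC it was at 90.7 and 310 CPM, against 302 and 1126 CPM in all other cells and 3189 and 2934 CPM in mural cells. The 12 mural genes outside the rule summed to 935 and 1222 CPM in SMC and to 6761 and 6249 CPM in mural cells. The 4 mural markers of the rule were left out of these sums. Both classes were still chosen by mural markers, so the gap is a description.

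To see how SMC varied among themselves, members of each library were clustered alone, without the 10 genes of the rule. This gave 6 clusters in the LI and 9 in the SI graft, which are called by number and leading genes and whose defining genes are a description. A pair of clusters was compared through the 25 leading genes of each. Sizes of clusters are not compared between grafts.

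Cluster 2 of the LI graft (107 cells) and cluster 1 of the SI graft (107 cells) shared 6 of 25 leading genes, with Actc1 and Hhip among them. Actc1, cardiac alpha-actin, which is also made in developing smooth muscle, was at 376 CPM in that LI cluster and at 11.0 CPM or less in each of the other LI clusters, and at 211 CPM in that SI cluster against 7.22 CPM or less elsewhere in the SI graft. Hhip was at 389 and 620 CPM, and at most at 70.4 CPM in any other LI and 65.0 CPM in any other SI cluster. Myocd was also at its highest there, at 112 and 154 CPM. Grem1 stood at 42.0 and 118 CPM, against 829 CPM in LI cluster 1 and 2118 CPM in SI cluster 4.

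LI cluster 1 (122 cells) and SI cluster 4 (68 cells) shared 10 of 25 leading genes, among them Id4, Enpp2, Rspo3, Shisa3, Cldn10, Enpp5, Ptger1, Ano1 and Chrdl1. Rspo3 was at 663 and 772 CPM and Chrdl1, a BMP antagonist, at 104 and 120 CPM. Actc1 was at 1.71 and 7.22 CPM. Both kinds of cell held Acta2 at like levels. It was at 9476 and 10682 CPM in the Rspo3 clusters and at 10563 and 10677 CPM in the Actc1 clusters. Other muscle genes differed, with Cnn1 at 1360 and 1624 CPM in the Rspo3 and 1101 and 965 CPM in the Actc1 clusters. Myh11 went the other way, at 1871 and 1829 CPM against 2639 and 2178 CPM. Pdgfra was detected in 11.5% and 11.8% of the Rspo3 clusters, and top doublet scores in 0.82% and 5.88%.

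**Figure D3:**
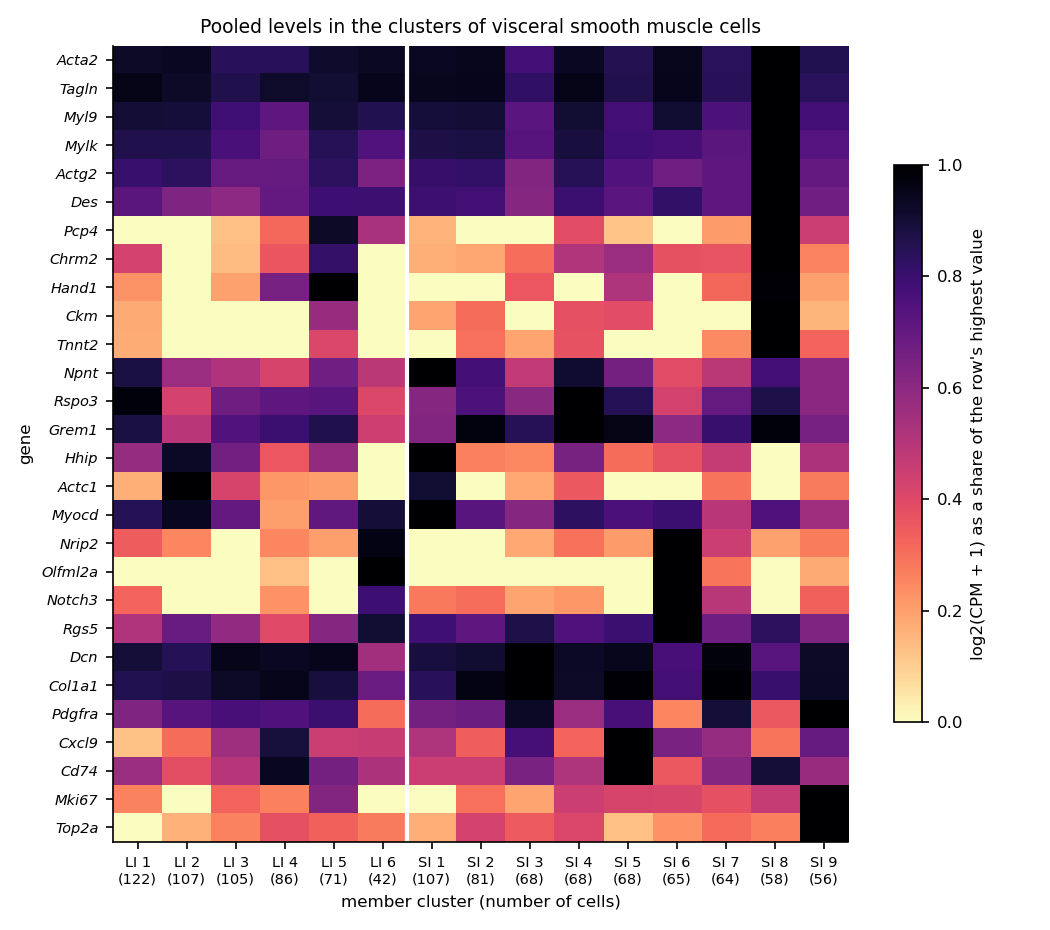
Pooled levels of genes (rows) in the 6 LI and 9 SI clusters of SMC (columns, with the number of cells), coloured as log2 of CPM plus 1 divided by the highest value of the row. The Actc1 and Hhip pair, the Rspo3 pair, the Pcp4 and Chrm2 pair and the Notch3 and Rgs5 pair each appear in both libraries.

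LI cluster 5 (71 cells) and SI cluster 8 (58 cells) were led by Pcp4, which encodes a small calmodulin-binding protein, and shared 7 of 25 leading genes with Chrm2 and Hand1 among them. Pcp4 (chr16:96467606-96525793) was at 466 and 784 CPM, and at most at 33.2 CPM in any other LI and 19.2 CPM in any other SI cluster. Chrm2 was at 175 and 566 CPM. Of all clusters the SI cluster held the highest levels of several contractile genes, with Acta2 at 20060 CPM, Tagln at 18614 CPM and Mylk at 7029 CPM. It also held striated muscle transcripts, Tnnt2 at 306 CPM and Ckm at 266 CPM, against 9.33 and 23.3 CPM in the LI cluster. All 4 muscle markers were detected in 94.8% of its cells and 0% had a top doublet score, whereas 38.0% of the LI cluster did. A mural marker was present in 82.8% of the SI and 62.0% of the LI cluster, with Kcnj8 at 400 and 277 CPM but Notch3 at 0 in both. As an alternative, members with a mural marker were counted as other cells. The log2 ratio of SMC over other cells for Pcp4 was then -0.43 in the SI graft, in place of 4.26. In the LI graft it was 1.96, in place of 3.47.

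LI cluster 6 (42 cells) and SI cluster 6 (65 cells) shared 12 of 25 leading genes, among them Olfml2a, Nrip2, Map3k7cl and the Notch target Nrarp. The 12 mural genes outside the rule summed to 4769 and 5116 CPM there. The 9 fibroblast genes summed to 2595 and 6665 CPM. This was below every other cluster of the LI graft and all but cluster 8 of the SI graft. Notch3 was at 85.3 and 282 CPM and Rgs5 at 639 and 1251 CPM. Actg2, the enteric actin gene of the rule, was at 412 and 541 CPM, against 1389 and 2304 CPM over all members. By these markers both clusters leaned to vascular mural cells although each cell met the rule.

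The remaining clusters differed in depth, sex and fibroblast genes. SI cluster 3 (68 cells, led by Mmp3 and Lrat) had a Pdgfra UMI in 64.7% of cells and 45314 CPM of fibroblast genes, with Lmod1 at 98.9 CPM. LI cluster 4 (86 cells, led by Ccl7, Ctla2a and Spp1) had a median of 12164 UMIs, a Pdgfra UMI in 52.3% and a top doublet score in 26.7% of cells, and Lmod1 at 58.5 CPM. SI cluster 5 (68 cells, led by Cxcl9) was 58.8% male, while LI cluster 3 and SI cluster 2 held 0% male cells. SI cluster 5 held 26920 CPM of 13 interferon and MHC genes, and 35.3% of its cells had a top doublet score. SI cluster 9 (56 cells, led by histone genes and Prc1) had Top2a at 546 CPM and Mki67 at 304 CPM, a Pdgfra UMI in 69.6% and a top doublet score in 32.1%. SI cluster 2 (81 cells, led by Ibsp, Edn3 and Npr3) held Edn3, a ligand of enteric neural crest, at 169 CPM, and Etv1, a factor of ICC, at 187 CPM. All 4 muscle markers were detected in 66.7% of that cluster, a Pdgfra UMI in 19.8% and a top doublet score in 0%, with a median of 5006 UMIs. LI cluster 3 (105 cells) was led by Ptger4 and Nrg1, and SI cluster 7 (64 cells) by Mest and Ctla2a.

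SMC of both grafts were then compared to ask how muscle from large and small intestine differed. Among 3358 genes at 50 CPM or more in SMC of a library, 51 (1.52%) were at least 2-fold higher in the LI and 68 (2.03%) in the SI graft. Over all of them the median of the log2 ratios (LI over SI) was -0.03. Of the 15 filament genes 0 passed the limit in either direction, and Acta2 differed by -0.22 (95% counting interval -0.25 to -0.20), Tagln by 0.08 (0.05 to 0.10) and Lmod1 by 0.09 (-0.02 to 0.19). In all other cells these log2 ratios were -1.14, -0.42 and -1.20. Of the genes that chose the cells, Des was at 564 CPM in LI and 1460 CPM in SI SMC and Actg2 at 1389 and 2304 CPM. Among members with no mural marker their log2 ratios were -0.72 and 0.066, in place of -1.37 and -0.73.

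**Figure D4:**
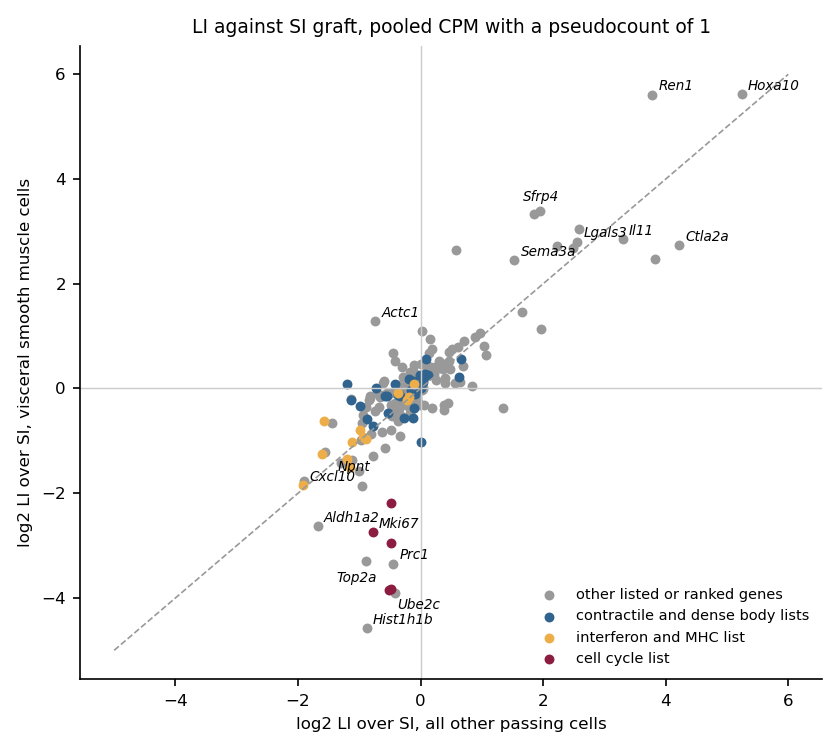
Log2 ratio of LI over SI in SMC (vertical axis) against the same ratio in all other cells (horizontal axis), 1 point for each listed or ranked gene, with a dashed line where both ratios are equal. Hoxa10 and Ren1 are high on both axes, while genes of dividing cells are at -2.19 to -4.58 in SMC and at -0.41 to -0.89 in other cells.

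Members of the functional lists that passed were few. In the LI graft these were Sema3a (56.7 CPM, 49.3 to 65.0, against 9.50 CPM, 6.95 to 12.7, in the SI graft), the collagen IV gene Col4a5 (106 against 38.0 CPM), Postn (1209 against 581 CPM), which encodes a matrix protein of growing tissue, and Actc1 (62.5 against 24.98 CPM). Actc1 was not higher in the other LI cells, where its level was 0.37 CPM against 1.28 CPM. In female cells alone its log2 ratio in SMC was 2.70, in place of 1.29. In the SI graft they were Npnt (317 against 136 CPM), the intermediate filament gene Synm (67.7 against 32.9 CPM), Chrm2 (64.8 against 25.8 CPM), the BMP antagonist Grem1 (940 against 429 CPM), the WNT inhibitor Sfrp1 (1715 against 573 CPM) and Rgs5. Synm was level in other cells, with a log2 ratio of 0.01, whereas Npnt had a ratio of -1.56 there. In female cells alone the log2 ratio of Npnt was -0.60, in place of -1.21. Synm (-1.02), Chrm2 (-1.30), Postn (1.06), Grem1 (-1.13) and Col4a5 (1.46) also fell short of the 2-fold limit under other settings. For Synm the log2 ratio was -0.54 when cells needed 1000 genes and under 5% of UMIs from mitochondria, and -0.29 with no mural marker. That of Chrm2 was -0.99 in female cells and -0.83 as a mean over cells. Postn was at 0.92 with all 4 muscle markers and at 0.96 with 2, Grem1 at -0.91 with 2, and Col4a5 at 0.96 after thinning.

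Of 13 interferon and MHC genes, 5 were at least 2-fold higher in the SI graft, H2-K1, Gbp2, Iigp1 and Cxcl10 among them, where 2.03% of all genes were, and 8 did not pass. The log2 ratio of LI over SI was negative for 12 of the 13, with a median of -0.93 in SMC and -0.99 in other cells. Iigp1, an interferon-induced GTPase, was at 291 CPM in LI and 829 CPM in SI SMC, and in female cells alone its log2 ratio was -1.06, in place of -1.51. H2-K1 (-1.03) was at -0.91 when 2 muscle markers sufficed, and Gbp2 (-1.25) was at -0.61 in female cells, both short of 2-fold. Immediate early genes, which respond to tissue handling, had a positive ratio for 12 of 12 genes in SMC, with a median of 0.27 against -0.02 in other cells, and 0 of them passed 2-fold. Male cells were more frequent in the SI graft and in the Cxcl9 cluster, and LI cluster 4 was 39.5% male against 8.26% of all LI SMC. With female cells alone the log2 ratio of Cxcl10 was -1.54, in place of -1.85.

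Genes ranked by the ratio named other kinds of transcript. Highest in the LI graft were Hoxa10, Ren1, Sfrp4, Wisp2, Il11, Lgals3, Ctla2a, Ccl7 and Fst, all of which had log2 ratios of 1.94 to 5.24 in other cells as well. Ren1, the renin gene, had 58.1 CPM in LI and 0.21 CPM in SI SMC, and in the LI graft its level was 134 CPM in cluster 4, 104 CPM in cluster 6 and 48.3 CPM in cluster 3 but 5.25 CPM or less in the others. Its log2 ratio of 5.61 was 2.43 among members with no mural marker and 3.95 in female cells. The galectin gene Lgals3 was at 163 and 22.5 CPM. The chemokine gene Ccl7 was at 264 and 39.0 CPM. When cells were thinned before the rule, Wisp2 and Il11 had log2 ratios of -0.27 and -0.75, and without the deep clusters (LI 4 and SI 5, 7 and 9) Ctla2a had -0.35 and Ccl7 0.30. In female cells alone Ctla2a was at 0.48, in place of 2.73. Highest in the SI graft were Hist1h1b, Hist1h2ae, Ube2c, Top2a, Prc1, 2810417H13Rik, Birc5, Mki67, Aldh1a2 and Cenpf. Aldh1a2, which makes retinoic acid, was at 32.6 CPM in LI and 206 CPM in SI SMC, a log2 ratio of -2.62 (-2.90 to -2.35), and its ratio in other cells was -1.68.

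All but Aldh1a2 of those 10 genes are known from dividing cells, and they came from few cells. At least 3 of 7 cycling genes were detected in 10 of 533 LI SMC (1.88%, 0.90 to 3.42) and 34 of 635 SI SMC (5.35%, 3.74 to 7.40), against 1.69% and 2.85% of other cells and 5.48% and 7.34% of Myh11+ mural cells. The cycling SI members had a median of 12638 UMIs and a Pdgfra UMI in 47.1%. Top2a was at 5.21 CPM in LI and 86.9 CPM in SI SMC, a log2 ratio of -3.82 (-4.43 to -3.25), and Mki67 at 6.85 and 51.8 CPM. Without SI cluster 9 the ratios were -0.14 for Top2a and -0.08 for Mki67. That cluster was picked for its Mki67 level, so a Mki67 ratio closer to 0 without it follows from that choice.

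Hox genes, whose order along their clusters follows the body axis, were read as a check of the labels. The sum over paralogue groups 9 to 13 was 319 CPM (301 to 338) in LI SMC and 7.84 CPM (5.55 to 10.8) in SI SMC, and in other cells it was 321 and 8.78 CPM. For groups 1 to 8 the sum was 235 CPM (220 to 252) in LI and 586 CPM (564 to 608) in SI SMC. A level of 10 CPM was reached by 8 posterior genes in LI SMC and 0 in SI SMC, and by 7 and 15 anterior genes. Hoxd8 was the anterior gene that reached it in LI SMC alone, at 35.6 CPM against 9.91 CPM.

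Several posterior genes had no UMI in SI SMC. Hoxd11 was at 44.9 CPM in LI SMC and at 0 UMIs in SI SMC, at least 72.6-fold higher when 3 counts over all SI SMC are taken as the floor. On the same floor Hoxd10 and Hoxa9 were at least 65.0-fold, Hoxc10 at least 59.7-fold and Hoxa11 at least 22.1-fold higher. Hoxa10 was at 58.6 and 0.21 CPM. Hoxc9 supplied 35 of the 38 posterior UMIs in SI SMC and was at 33.2 CPM in LI and 7.22 CPM in SI SMC. Among anterior genes Hoxb4 was at 37.3 and 97.6 CPM, Hoxc8 at 32.3 and 89.0 CPM and Hoxa4 at 1.10 and 19.8 CPM.

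**Figure D5:**
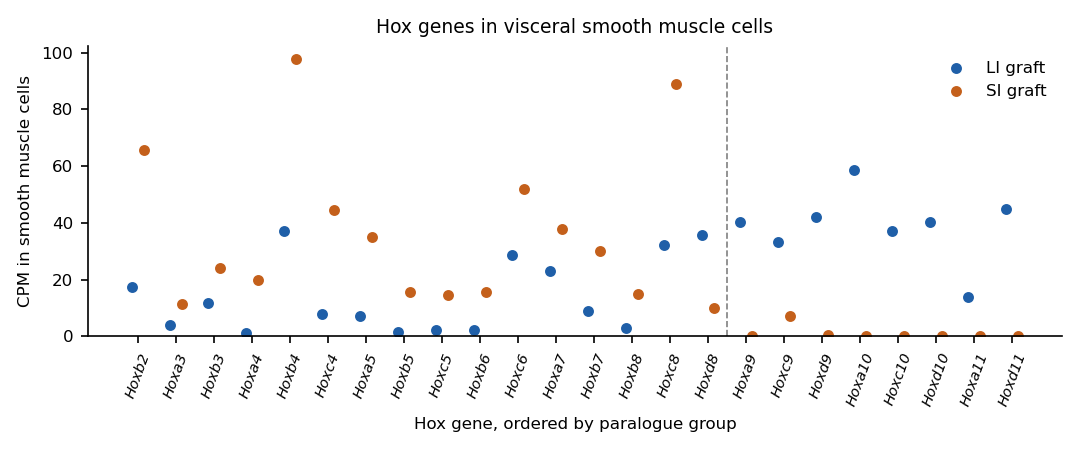
Level (CPM, linear axis) of Hox genes at 10 CPM or more in SMC of the LI or SI graft, in order of paralogue group, with a dashed line before group 9. The 8 genes of groups 9 to 13 are shown because they reach 10 CPM in the LI graft, and none of them reaches it in the SI graft, where Hoxc9, the highest of them, is at 7.22 CPM.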

How the data were processed

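Single-cell RNA-seq was performed on sorted graft MSC, 1 library for each kind of graft. The submitters' processing notes name Cell Ranger 3.1.0 and Seurat 3, and the authors aligned reads to the mm10 mouse genome. The deposited files hold raw UMI counts per gene and barcode, with no normalization. The authors' cell annotation was not used here.

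Cells were read with scanpy 1.11.5 under Python 3.11.15. No quality limits were stated for the deposited tables. Cells were kept at 500 or more genes and 10% or less mitochondrial UMIs, and SMC were then chosen by the rule given above. Counts were summed over each class and scaled to CPM. Log2 ratios have a pseudocount of 1 CPM and are given for genes with at least 50 CPM. A gene was called at 2-fold, which is a limit of size and not a test. CPM carry exact Poisson, shares exact Clopper-Pearson and ratios exact binomial 95% intervals (scipy 1.17.1), which cover counting error only. Depth was 63348069 and 54918006 UMIs. Mural cells had 2 or more mural markers and a Myh11 UMI, ICC had Kit and Ano1, and Pdgfra+ FB had a Pdgfra UMI and at most 1 muscle marker. For shares of cells with a UMI, each cell was thinned to 2000 UMIs, which left 514 of 533 LI and 613 of 635 SI SMC. Members were clustered per library (1000 variable genes without those of the rule, 15 principal components, 15 neighbours, Leiden resolution 0.5). Doublets were scored with Scrublet, whose own threshold called 0 and 1 barcodes and so did not work. They were kept, and the top scores, at 0.8% per 1000 barcodes, were removed as an alternative.

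Members and gene lists were chosen with earlier results of these data known. Genes were named from the lists, as the 25 with the largest smaller log2 ratio of SMC over other cells, as the 10 with the largest log2 ratio of LI over SI in each direction (sex-linked, haemoglobin, mitochondrial and immunoglobulin genes left out), and as the 5 leading genes of each cluster. The 25 were taken among genes at 50 CPM or more in SMC of both libraries. Single genes outside this rule in the text are examples chosen after their values were seen. Some genes of the lists and rankings are not reported here. Of the listed symbols 6 were not matched in the files. Coordinates come from GENCODE vM21, where 413 of 413 genes were found. Alternatives changed the limits on genes and mitochondrial UMIs, the number of markers, depth, sex, doublets, pseudocount, minimum level and scaling (TMM in edgeR 4.0.16, used for scaling only).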

Additional observations from a re-analysis of the deposited data

Results flagged for a closer look

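Pooled levels of cell cycle genes went in opposite directions in the grafts when SMC were set against the other cells of their own library. The log2 ratio of SMC over other cells was -1.83 in the LI and 1.51 in the SI graft for Ube2c, -1.91 and 1.43 for Top2a, and -1.05 and 1.41 for Birc5. With 1 library for each graft the difference was not tested. The share of cells with at least 3 of 7 cycling genes was 1.88% (0.90 to 3.42) in LI SMC against 1.69% of other LI cells. In the SI graft these genes were concentrated in the 56 cells of cluster 9, which had a median of 9153 UMIs, a Pdgfra UMI in 69.6% and a top doublet score in 32.1% of cells.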

How the results depend on the processing

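With 1 library for each graft, no spread between animals could be measured and no p-value is given. No paired analysis was possible because each group held 1 library. Depth limits genes below a few CPM, since 3 counts were 0.822 CPM in LI and 0.619 CPM in SI SMC. The share of SMC (5.40% LI, 8.03% SI) was 2.30% and 4.22% with all 4 markers required, 10.5% and 16.2% with 2 markers, 3.26% and 4.80% with no mural marker, and 3.68% and 6.65% after thinning before the rule, and SI stayed above LI in each. The filament count of 9 ranged from 8 to 10 over all alternatives. At a minimum of 10 CPM, 187 genes were higher in the LI and 241 in the SI graft, and otherwise the counts were 41 to 72 and 53 to 88. The posterior Hox sum of LI SMC (319 CPM) was 344 with all 4 markers, 358 after thinning, 353 as a mean over cells and 354 without the deep clusters, and that of SI SMC (7.84 CPM) was 4.56 in female cells and 4.87 without the deep clusters.

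Without members that held a mural marker, the log2 ratio of SMC over other cells was -0.43 for Pcp4 in the SI graft (4.26 with them), 1.96 for Pcp4 in the LI graft (3.47), -0.20 for Chrm2 in the LI graft (2.15) and 0.00 for Chrm2 in the SI graft (2.66). The cluster highest in Pcp4 held 42 LI cells at resolution 1.0, in place of 71. After thinning, the log2 ratio of LI over SI was -0.27 for Wisp2 and -0.75 for Il11. Chosen after seeing the data, leaving out SI cluster 9 gave 0.73 for Cenpf, 0.64 for Prc1, 0.71 for Birc5 and 0.76 for Hist1h2ae, and that cluster was picked for its Mki67 level. Leaving out the deep clusters (LI 4 and SI 5, 7 and 9), also chosen after seeing the data, gave 1.38 for Cenpf, 1.10 for Ube2c, -0.014 for Il11, 0.067 for Prc1, 0.34 for Mki67, 1.39 for Birc5, 0.23 for Hist1h1b, 0.49 for Hist1h2ae and -0.35 for Ctla2a, and the cause was not tested. Of 525 values of LI over SI for named genes, 15 changed sign over the alternatives.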
